A study of Mus musculus with 12 samples.

Results

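In hearts of mice whose cardiomyocytes were to lack the glucocorticoid receptor, 165 genes differed from their floxed controls in the same direction in both comparisons of the study, the one of male libraries and the one of libraries labelled female. They were chosen by measured values. A gene was taken if its mean over the 12 libraries was at least 8 on the log2 scale and if the cardioGRKO group mean lay at least 0.12 above, or at least 0.12 below, the floxed mean in both comparisons. Of 24918 genes in the table, 9636 reached the mean of 8, and of these 93 were higher and 72 lower in both comparisons. These are 0.965% and 0.747% of the 9636 genes, shares that the rule itself fixes. Before genes were left out, 175 met both limits. Casq1, Nppb, Ankrd1, Ddit4 and Sgk1 were left out by name and Krt12, Krt5, Aldh3a1, Gsta4 and Ccdc63 for an SD over 0.5 among floxed libraries. Fkbp5, also on the list of names to leave out, did not reach the mean of 8. Because the genotype differences chose the members, they are given as a description without a test.

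RNA of hearts was sequenced from untreated C57BL/6 mice at 2 months of age, with 3 libraries in each of 4 groups. The floxed groups, male and labelled female, were homozygous for a floxed glucocorticoid receptor gene (GRloxP/loxP) that is intact without Cre. The cardioGRKO groups carried the same floxed alleles and 1 copy of αMHC-Cre, a recombinase driven by the α-myosin heavy chain promoter, which is active in cardiomyocytes. All 4 groups carried the floxed alleles and only cardioGRKO mice carried Cre, so Cre and the deletion cannot be told apart. Cells of the heart other than cardiomyocytes keep the receptor in this model. The genotype field of the labels names all 12 libraries wild type, so the groups rest on the sample titles. No label ties the libraries of a group to separate animals. The p-values below hence measure only how these libraries spread, which may be technical. The study asked how the transcriptome differs between hearts with and without the receptor in cardiomyocytes, and its title speaks of differences between the sexes.

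The glucocorticoid receptor is a nuclear receptor. Bound by corticosterone in the mouse, it enters the nucleus and raises or lowers the transcription of its targets, either at its own DNA element or through other factors. In cardiomyocytes it is known to influence contraction, calcium handling and growth. The mineralocorticoid receptor, which binds the same hormone and the same element, is present there too.

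The labels were checked first. Nr3c1, the receptor gene, stood at 11.41 ± 0.015 (SD, n = 3) in male floxed and 10.85 ± 0.027 in male cardioGRKO libraries (log2 scale; limma difference -0.56, SE 0.024, adjusted p = 2.45e-11). Under the female label it was 10.74 ± 0.034 in floxed and 10.88 ± 0.029 in cardioGRKO, a difference of 0.14 in the direction opposite to the label (limma, SE 0.024, adjusted p = 0.000384). Directions below are therefore those of the libraries as labelled. Krt12, a keratin of the corneal epithelium, reached 13.13 and 13.98 in replicates 1 and 2 of the group labelled female floxed, against 7.16 to 8.49 in the other 10 libraries. Without both, the rule found 103 higher and 91 lower genes, and 82 and 67 of the reported members were among them. Myh6, the main heavy chain of cardiomyocyte myosin, lay between 19.34 and 19.51 in all 12 libraries. In bulk hearts, fewer cells of a type and less RNA per cell cannot be told apart.

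The differences were small and were spread evenly over both comparisons. Among the 93 higher members the median difference was 0.19 in males and 0.18 in the libraries labelled female, and the largest were 0.58 and 0.70. Among the 72 lower members the medians were -0.20 and -0.19, and the lowest values were -1.06 and -0.86. Over all 9636 genes the medians were -0.01 and 0.01. The larger of a member's pair of differences was in males for 43 of the higher and 36 of the lower members. For 58 higher and 37 lower members it was less than 1.5 times the smaller, and for 16 in each direction at least 2 times. All libraries of 1 genotype lay on 1 side of the other in both comparisons for 93 of 93 higher and 69 of 72 lower members. Among all 9636 genes the same held for 4.68% in the higher and 4.56% in the lower direction. The rule used these differences, so nothing is read from the counts. Past the limit were 1887 genes in males and 1671 in the libraries labelled female, and 469 genes were past it in opposite directions, 206 of them higher and 263 lower in males. Which genes count as alike rests on the female labels: with these turned, the alike and the opposite genes would change places.

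**Figure D1:**
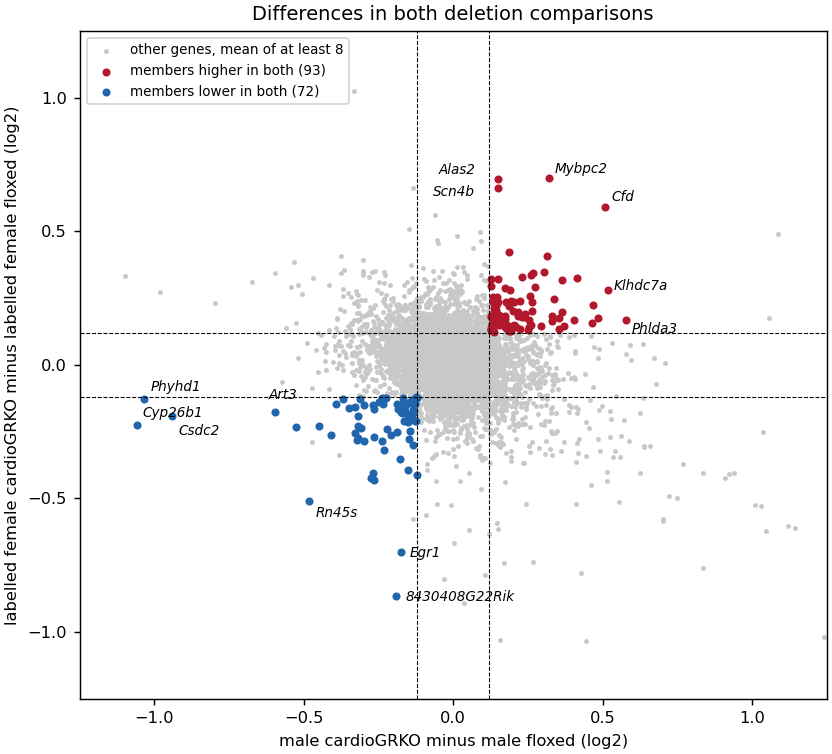
Each point is a gene with a mean of at least 8, with its cardioGRKO minus floxed difference in males on the x axis and in the libraries labelled female on the y axis, both in log2 units. Red points are the 93 members higher in both and blue points the 72 lower in both, dashed lines mark 0.12 and -0.12, and 16 other genes lie outside the axes.

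Members that barely met the limit differed little from genes that missed it. On the higher side Tubb2a had 0.14 in males and 0.12 in the libraries labelled female, Mboat7 0.13 and 0.13, and the p53 target Eda2r 0.19 and 0.13. Just outside lay Fcgrt at 0.12 and 0.13, Gtf3c1 at 0.12 and 0.13, and Tmem109 at 0.12 and 0.22. On the lower side Acp6 (-0.13 and -0.12), Ntn1 (-0.12 and -0.12) and the kinase gene Pim3 (-0.12 and -0.41) were inside. Mat2a (-0.14 and -0.12), Jak3 (-0.16 and -0.12) and Dmd, the gene of dystrophin (-0.30 and -0.12), were outside. Ntn1 was at -0.07 in the libraries labelled female without the pair that held Krt12.

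Mybpc2 and Acta1, both skeletal muscle isoforms, were among the higher members. Mybpc2, the fast skeletal form of myosin-binding protein C, stood at 9.59, 9.55 and 9.53 in the male floxed and 9.85, 9.90 and 9.88 in the male cardioGRKO libraries. In the libraries labelled female it was at 9.32, 9.28 and 9.38 in floxed and 10.02, 10.04 and 10.01 in cardioGRKO. The groups did not overlap in either comparison, and cardioGRKO reached 125% and 162% of the floxed level. Acta1, the skeletal α-actin that newborn and stressed hearts also express, was at 13.17, 13.20 and 13.16 in male floxed and 13.37, 13.34 and 13.38 in male cardioGRKO libraries. Its values were 13.35, 13.38 and 13.38 and 13.81, 13.78 and 13.79 in the floxed and cardioGRKO libraries labelled female. Its difference was 0.19 in males and 0.42 in the libraries labelled female, again without overlap.

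Mybpc2 and Acta1 were 2 of the 7 genes of a list of skeletal muscle isoforms with a mean of at least 8. Over all 9636 genes, 0.965% were higher and 0.747% lower members. In the limma fit, 2 of the 7 were higher and 2 lower in males, and 4 were higher and 1 lower in the libraries labelled female. Over all 9636 genes, limma called 13.5% higher and 20% lower in males, and 19.7% higher and 14.5% lower in the libraries labelled female. The rule used these contrasts, so the calls are background only, and 162 of the 165 members were called in each. The summed level of 12 skeletal muscle markers, which hold Acta1, Mybpc2 and Casq1, was 13.47 to 13.51 in male floxed and 13.84 to 13.86 in male cardioGRKO libraries (log2 of the sum). In the libraries labelled female it was 13.68 to 13.72 and 14.17 to 14.18. Acta1 alone, at 13.16 to 13.20 in male floxed libraries, makes up most of the level of this sum. In males the sum differed by more than Acta1 did, so it does not only repeat the values of Acta1. Casq1, also in the sum, differed by 1.37 in males and 0.70 in the libraries labelled female. None of the 12 was at 0 in every library. Whether skeletal muscle cells had a part in the values of Mybpc2 and Acta1 was not tested.

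The heart's own sarcomere genes among the members did not share a direction. Synpo2l, a Z-disc protein, was higher by 0.26 in both comparisons, with cardioGRKO libraries at 12.28, 12.28 and 12.27 in the male groups and at 11.84, 11.89 and 11.88 in those labelled female, above all floxed libraries of the same label. Flnc, the muscle filamin, was higher by 0.13 and 0.32. Tnnt2, the cardiac troponin T that ties the calcium sensor to the thin filament, was lower. It was at 18.13, 18.12 and 18.09 in male floxed and 17.90, 17.91 and 17.89 in male cardioGRKO libraries, and at 18.09, 18.06 and 18.10 and 17.84, 17.82 and 17.80 in the libraries labelled female. That is 86.5% and 83.5% of the floxed level, in a transcript at a mean of 17.98. Fhl1, a LIM protein of the sarcomere linked to hypertrophy, was lower by 0.26 and 0.27. These were 4 of 36 sarcomere genes (11.1%), against 0.965% higher and 0.747% lower members among all 9636 genes. The medians of the 36 were -0.03 and 0.01. Limma called 16 higher and 17 lower in males and 14 and 10 in the libraries labelled female. The sum of 15 cardiomyocyte markers moved less, from between 21.48 and 21.51 to between 21.37 and 21.38 in males, and from between 21.37 and 21.42 to between 21.40 and 21.42 in the libraries labelled female.

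**Figure D2:**
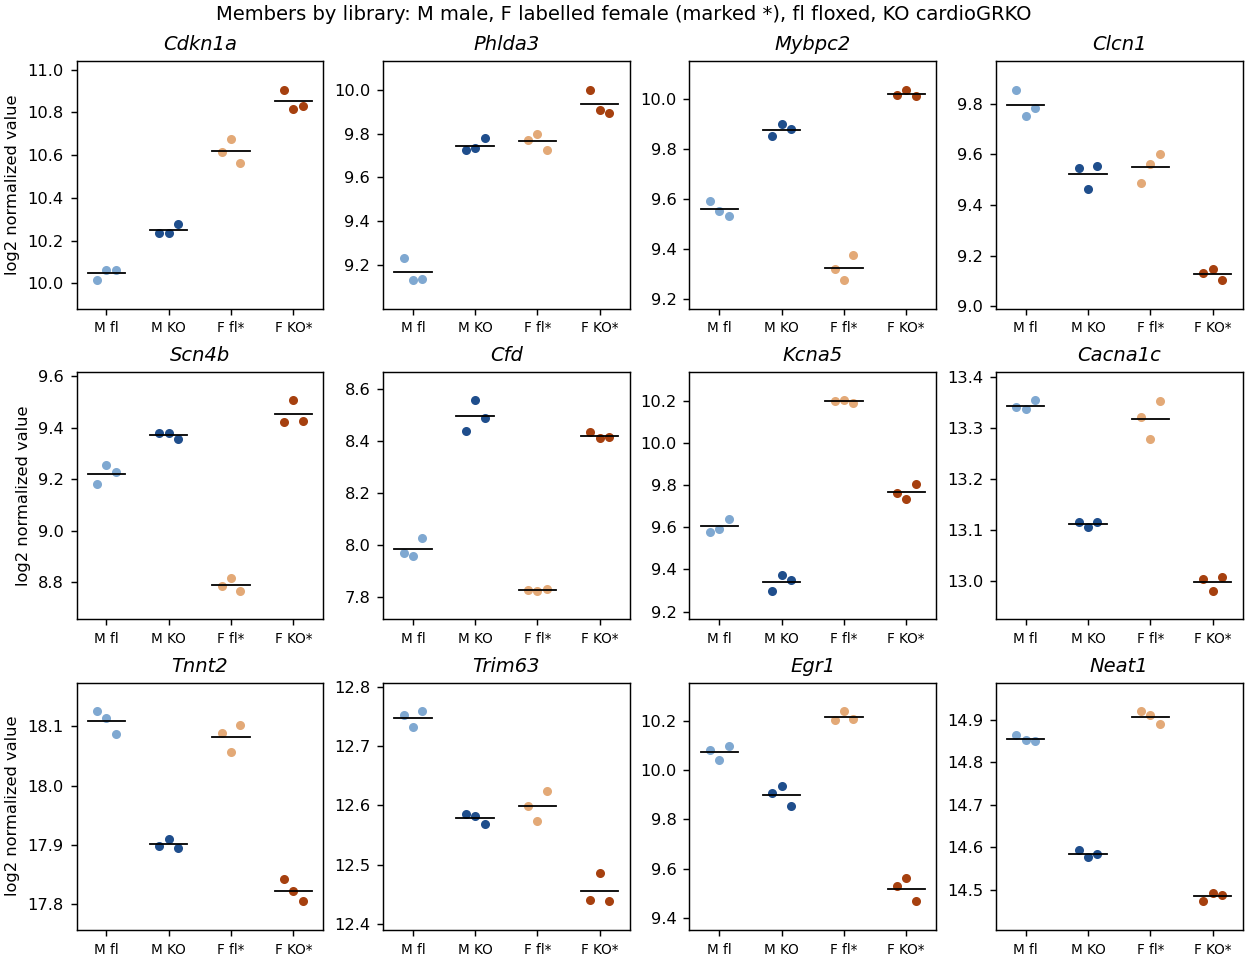
The log2 normalized value of 12 members in each of the 12 libraries is plotted by group, with 3 points and their mean as a line per group; y axes do not start at 0. In every panel both cardioGRKO groups lie on the same side of their floxed groups, while in Cdkn1a and Kcna5 the libraries labelled female lie above the male ones.

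Ion channels made up the list with the most members, 7 of 31 genes, with members on both sides. For this list and those below, the shares over all 9636 genes were 0.965% higher and 0.747% lower members. Among the higher were Scn4b, a β subunit of the voltage-gated sodium channel, and Kcnip2, the subunit that tunes the transient outward potassium current. Scn4b differed by 0.15 in males and by 0.66 in the libraries labelled female, where floxed libraries were at 8.79, 8.82 and 8.77 and cardioGRKO libraries at 9.42, 9.51 and 9.43. Male floxed libraries were at 9.18, 9.26 and 9.23 and male cardioGRKO libraries at 9.38, 9.38 and 9.36. The labelled female floxed libraries were thus the lowest of the 4 groups, and both cardioGRKO groups were close together. Kcnip2 was higher by 0.17 and 0.18.

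Lower were Cacna1c, Kcna5, Kcne1 and Clcn1. Cacna1c encodes the pore of the L-type calcium channel that triggers each contraction. Its values were 13.34, 13.34 and 13.35 in male floxed, 13.11, 13.11 and 13.12 in male cardioGRKO, 13.32, 13.28 and 13.35 in labelled female floxed and 13.00, 12.98 and 13.01 in labelled female cardioGRKO libraries. Floxed groups of both labels were close together and so were the cardioGRKO groups, at 85.2% and 80.1% of floxed. Kcna5, the channel of the ultrarapid delayed rectifier current, was at 9.58, 9.59 and 9.64 and 9.30, 9.37 and 9.35 in the male groups and at 10.20, 10.20 and 10.19 and 9.76, 9.73 and 9.80 in the libraries labelled female. Clcn1, the chloride channel of muscle, was lower by 0.28 and 0.42, and Kcne1, a subunit of the slow potassium channel, by 0.13 and 0.30. Over the 31 channel and connexin genes the medians were 0.03 and -0.04, and limma called 13 higher and 12 lower in males and 7 and 13 in the libraries labelled female.

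Kcna5 is also a marker of atrial muscle, whose other markers went against it in males and with it in the libraries labelled female. The sum of 12 atrial markers was 15.11 to 15.13 in male floxed and 17.15 to 17.16 in male cardioGRKO libraries. Under the female label it went the other way, with 16.81 to 16.85 in floxed and 15.80 to 15.83 in cardioGRKO. Kcna5 was thus lower in males where the atrial sum was higher and lower in the libraries labelled female where the sum was lower. Limma called 11 of the 12 atrial genes higher in males and 11 lower in the libraries labelled female. The part of atrial tissue in the difference of Kcna5 under the female label was not tested.

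Calcium handling gave 2 members of 27. Casq2, the calcium buffer of the cardiac sarcoplasmic reticulum, was higher by 0.13 and 0.15. Slc8a1, the sodium-calcium exchanger that removes calcium between beats, was lower by 0.24 and 0.12. The genes of the release and uptake machinery were no members. Ryr2, the release channel, was at -0.37 in males and -0.02 in the libraries labelled female, and Atp2a2, the SERCA pump, at -0.20 and 0.20. Among signalling genes Grk5, the kinase that desensitizes β-adrenergic receptors, was higher by 0.27 and 0.35, from 9.87, 9.84 and 9.94 to 10.12, 10.19 and 10.15 in males. Pde7a, a cyclic AMP phosphodiesterase, was lower by 0.45 and 0.23. They were the 2 members among 27 genes of adrenergic and cyclic AMP signalling. Rcan1, an inhibitor of calcineurin and a readout of its activity, was higher by 0.15 and 0.32. Hand2, a transcription factor of heart development, was lower by 0.18 in both.

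**Figure D3:**
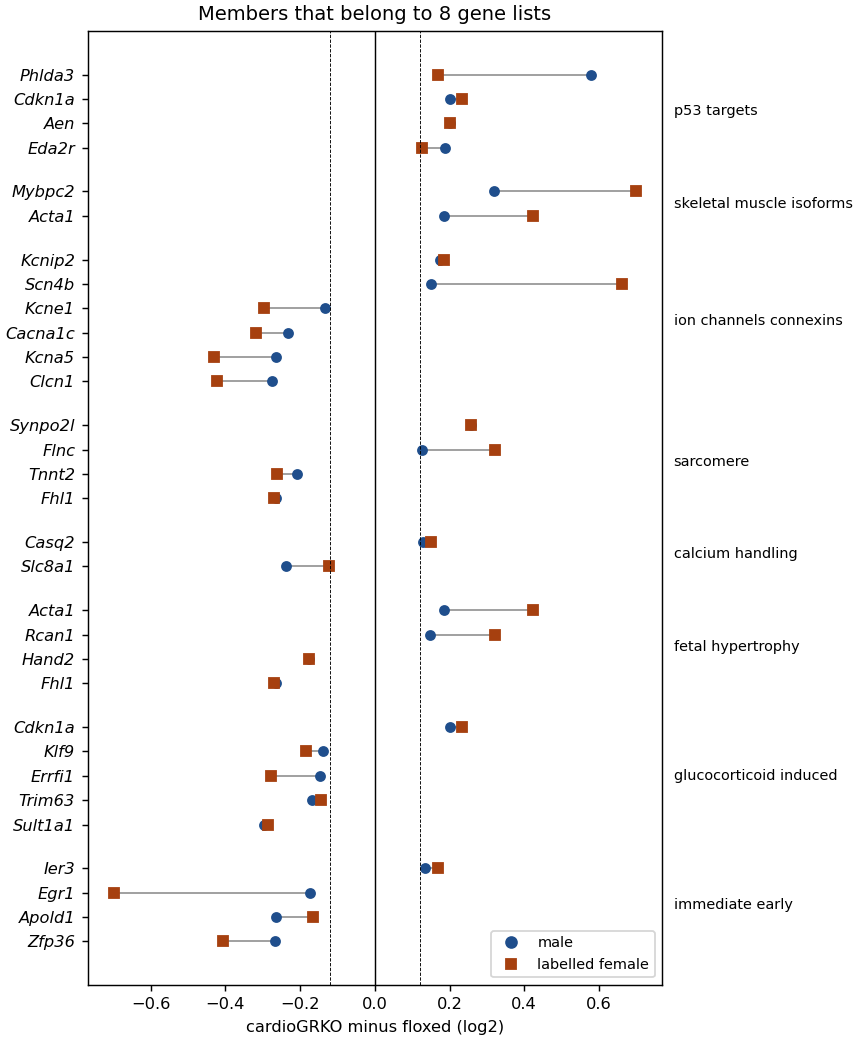
Each row is a named member of 1 of 8 gene lists, with its cardioGRKO minus floxed difference in log2 units in males (circle) and in the libraries labelled female (square). The 4 p53 targets and both skeletal isoforms lie to the right of 0, while the other lists hold members on both sides; dashed lines mark 0.12 and -0.12.

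The p53 targets among the members were all higher. They were Cdkn1a (the cell-cycle inhibitor p21), Phlda3 (an inhibitor of the kinase Akt), Aen (a nuclease of apoptosis) and Eda2r (a receptor of the TNF family), 4 of 19 genes. Cdkn1a stood at 10.02, 10.06 and 10.06 in male floxed and 10.24, 10.24 and 10.28 in male cardioGRKO libraries. In the libraries labelled female it was at 10.61, 10.67 and 10.56 and 10.91, 10.82 and 10.83. The groups did not overlap, with differences of 0.20 and 0.23. Phlda3 had the largest difference of the higher members in males, 0.58, from 9.23, 9.13 and 9.14 to 9.72, 9.73 and 9.78. In the libraries labelled female its difference was 0.17, from a floxed level of 9.77, 9.80 and 9.73, about that of the male cardioGRKO libraries. Aen was higher by 0.20 in both.

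The list as a whole did not move as these 4 did. Its medians were 0.01 in males and 0.04 in the libraries labelled female. Limma called 8 of the 19 higher and 2 lower in males and 6 higher and 4 lower in the libraries labelled female. Mdm2, the ubiquitin ligase that p53 induces against itself, was at 0.09 and 0.10, under the limit. Ccng1, a further p53 target, was at -0.21 and 0.25. Cenpf, a kinetochore protein of dividing cells, was at 9.14, 9.17 and 9.16 and 9.52, 9.43 and 9.46 in the male groups and at 9.53, 9.52 and 9.58 and 9.96, 9.98 and 9.92 in the libraries labelled female. Ccnd2 (cyclin D2), at 0.37 and 0.20, and the survival gene Bcl2, at 0.22 and 0.18, were picked after their values were seen.

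Cfd, the protease factor D of the alternative complement pathway, which fat cells secrete, ranked first by its smaller difference. It was at 7.97, 7.96 and 8.03 in male floxed and 8.44, 8.55 and 8.49 in male cardioGRKO libraries. The corresponding values under the female label were 7.83, 7.82 and 7.83 and 8.43, 8.41 and 8.41. That is 142% and 151% of the floxed level on the deposited scale, with clear gaps between the groups. C3, the central complement component that factor D helps to cleave, was higher by 0.30 and 0.35, at 11.46, 11.43 and 11.43 and 11.79, 11.70 and 11.74 in the male groups and at 10.79, 10.79 and 10.87 and 11.13, 11.18 and 11.17 in the libraries labelled female. Cfp (properdin), which steadies the same enzyme complex, was higher by 0.18 and 0.15, and was picked after its values were seen.

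Cfd is an adipocyte marker, and the sum of 12 such markers took opposite directions. It was 17.61 to 17.64 in male floxed against 17.23 to 17.29 in male cardioGRKO libraries, and 17.07 to 17.12 against 17.38 to 17.46 in the libraries labelled female. In males Cfd was thus higher where the adipocyte sum was lower. Under the female label both were higher. Only 5 of the 12 markers had a mean of at least 8, so the sum rests on few genes and may not follow fat cells. Of these 5, Cfd among them, limma called 1 higher and 4 lower in males and 5 higher in the libraries labelled female. The part of fat cells in the difference of Cfd was not tested in either comparison. Other secreted or surface proteins among the higher members were Adamtsl5, a microfibril-associated protein (0.26 and 0.34), Lrrc15 (0.34 and 0.25), and Cntn2, a contactin found in the conduction system (0.27 and 0.29). No gene of the extracellular matrix list was a member, 0 of 45, against 0.965% higher and 0.747% lower members over all 9636 genes.

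Of 34 genes induced by glucocorticoids in other tissues, 4 were lower members and 1 was a higher member. Sult1a1, a sulfotransferase, was at 9.90, 9.81 and 9.87 in male floxed and 9.54, 9.58 and 9.57 in male cardioGRKO libraries. The libraries labelled female were at 10.08, 10.07 and 10.14 and 9.79, 9.85 and 9.79, with differences of -0.30 and -0.29. Trim63, the ubiquitin ligase MuRF1 of muscle atrophy, was at 12.75, 12.73 and 12.76 and 12.59, 12.58 and 12.57 in the male groups and at 12.60, 12.57 and 12.62 and 12.44, 12.49 and 12.44 in the libraries labelled female. All libraries of 1 genotype were on 1 side of the other for both genes. Errfi1, a feedback inhibitor of the EGF receptor, was lower by 0.15 and 0.28, and Klf9, a zinc finger factor, by 0.14 and 0.18. Cdkn1a, the higher one, is counted here and among the p53 targets.

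The other genes of that list split. Its medians were -0.06 and -0.04, and limma called 7 higher and 16 lower in males and 9 higher and 16 lower in the libraries labelled female. Per1, a clock gene with a known receptor element, was at -0.09 and -0.56. Tsc22d3 (GILZ), often used as a readout of the hormone, was at 0.10 and -0.36. The targets Ddit4 (-0.47 and -0.29) and Sgk1 (-0.38 and -0.34) met the limits and were left out by name.

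Promoters of the lower members were searched for the receptor's element. RefSeq start sites on GRCm38.p6 were at hand for 137 members, 80 higher and 57 lower, and for 7744 of the 9636 genes. A window is the 250 bases before a start, and the 7744 genes had 10004 windows. A gene was counted if any of its windows held the motif, so genes with more starts had more chances. The element was written as GNACANNNTGTNC on both strands. It was found for 27 of the 7744 genes (0.349%), for 0 of 80 higher members and for 3 of 57 lower members, Car14, Kcna5 and Trim63. They are shown because they alone of the 137 hold it, each 5′ to 3′ in the direction of its gene, with the element in capitals.
Car14, chr3:95904686-95904935, minus strand: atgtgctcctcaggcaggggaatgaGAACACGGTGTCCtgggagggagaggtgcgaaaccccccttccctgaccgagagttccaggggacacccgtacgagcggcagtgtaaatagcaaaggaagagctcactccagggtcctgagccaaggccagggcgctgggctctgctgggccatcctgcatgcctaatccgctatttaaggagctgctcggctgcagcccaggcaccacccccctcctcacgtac
Kcna5, chr6:126535556-126535805, minus strand: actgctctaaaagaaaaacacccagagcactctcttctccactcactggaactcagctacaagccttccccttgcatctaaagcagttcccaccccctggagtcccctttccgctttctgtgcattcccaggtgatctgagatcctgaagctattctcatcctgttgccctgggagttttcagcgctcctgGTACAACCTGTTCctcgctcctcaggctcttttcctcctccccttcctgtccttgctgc
Trim63, chr4:134314870-134315119, plus strand: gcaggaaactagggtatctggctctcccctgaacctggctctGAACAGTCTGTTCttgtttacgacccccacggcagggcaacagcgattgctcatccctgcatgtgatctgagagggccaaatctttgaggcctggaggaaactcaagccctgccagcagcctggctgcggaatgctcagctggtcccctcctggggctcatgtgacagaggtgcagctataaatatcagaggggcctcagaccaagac
The element begins 225 bases before the start in Car14, 59 in Kcna5 and 208 in Trim63. Car14, a carbonic anhydrase of the cell surface, was lower by 0.35 in males and 0.16 in the libraries labelled female. The half-site AGAACA overlaps the element in Car14 and Trim63. It was found for 966 of 7744 genes (12.5%), for 8 of the higher members (10%) and for 15 of the lower (26.3%). A match describes the letters and not a site of binding.

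Other motifs and base composition were counted the same way. TATAAA was found for 7.77% of the 7744 genes, for 7 higher members (8.75%) and for 11 lower members (19.3%). GGGCGG was found for 66.4% of the 7744 genes, for 61.2% of higher and 45.6% of lower members. Median GC content, with the windows of a gene averaged, was 60.4% over these genes, 60.9% for higher and 56.8% for lower members. The motifs share this base composition, so their counts are not independent. CAGCTG, the muscle E-box, was found for 14.5% of these genes, for 23.8% of higher and 17.5% of lower members. TTCNNNGAA, the STAT site, was found for 6.83%, 5% and 15.8%.

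The CArG box is bound by serum response factor and known from muscle and immediate early genes. It was found for 118 of 7744 genes (1.52%), 5 of them members. Acta1 and Creld1 are higher members, and Arrdc4, Fhl1 and Zfp36 lower ones. The boxes of 1 higher and 2 lower members whose values are given here are shown in capitals with their surroundings.
Acta1, chr8:123894809-123894878, minus strand: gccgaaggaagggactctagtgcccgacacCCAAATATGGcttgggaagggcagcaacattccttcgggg
Fhl1, chrX:56779551-56779620, plus strand: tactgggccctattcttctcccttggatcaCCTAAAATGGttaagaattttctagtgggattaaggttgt
Zfp36, chr7:28379247-28379316, minus strand: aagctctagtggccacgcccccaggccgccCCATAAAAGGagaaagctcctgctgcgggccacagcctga
The 3 genes share the box and not the direction, with 0.19 and 0.42 for Acta1, -0.26 and -0.27 for Fhl1, and -0.27 and -0.41 for Zfp36.

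Immediate early genes, which respond within minutes to growth signals and also to handling of tissue, gave 4 members of 19. Zfp36 (tristetraprolin), which speeds the decay of cytokine messages, was at 9.65, 9.73 and 9.79 in male floxed and 9.47, 9.45 and 9.45 in male cardioGRKO libraries. For the female label the values were 9.95, 9.86 and 9.92 and 9.51, 9.52 and 9.50. The cardioGRKO groups lay close to each other below both floxed groups. Egr1, a zinc finger factor induced by growth signals, was lower by 0.17 in males and 0.70 in the libraries labelled female, where it went from 10.21, 10.24 and 10.21 to 9.53, 9.56 and 9.47. Apold1, an endothelial early gene, was lower by 0.27 and 0.17, and Ier3 was higher by 0.13 and 0.17. Over the list the medians were -0.02 and -0.17, and limma called 3 higher and 5 lower in males and 3 higher and 11 lower in the libraries labelled female. Fos went in opposite directions, at 0.22 and -0.74, and so did Nr4a1, at 0.43 and -0.78.

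Endothelial genes were picked out of the lower members after their values were seen. They were Emcn (endomucin; -0.14 and -0.14), Dll4, the Notch ligand of arteries and sprouts (-0.27 and -0.15), and the list member Apold1. Emcn was at 11.05, 11.06 and 11.07 and 10.94, 10.90 and 10.94 in the male groups and at 11.15, 11.15 and 11.24 and 11.02, 11.06 and 11.03 in the libraries labelled female, without overlap. The sum of 13 endothelial markers went from 16.15 in male floxed to between 16.02 and 16.04 in male cardioGRKO libraries, and from between 16.01 and 16.05 to between 16.07 and 16.11 in the libraries labelled female. Emcn was the 1 member of the 13. It was lower in the libraries labelled female where the sum was higher. In males both were lower, and the part of endothelial cells in Emcn there was not tested. Epha2, a receptor of endothelial and epithelial cells, was lower by 0.16 and 0.15, but by 0.03 in the libraries labelled female without the pair that held Krt12.

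Alas2, which starts heme synthesis in red cell precursors, was higher by 0.15 in males and 0.70 in the libraries labelled female, and was picked after its values were seen. It was at 10.08, 10.17 and 10.16 and 10.24, 10.28 and 10.34 in the male groups and at 9.87, 9.83 and 9.91 and 10.56, 10.53 and 10.61 in the libraries labelled female. Of 6 erythroid markers in the table it was the 1 with a mean of at least 8, and Hba-a1 and Hbb-b1, the globin genes that define red cells, were listed at 0 in all libraries. The sum of the 6 was 10.36 to 10.44 in male floxed, 10.49 to 10.59 in male cardioGRKO, 10.13 to 10.20 in labelled female floxed and 10.76 to 10.83 in labelled female cardioGRKO libraries. Alas2 itself makes up most of this sum, so the sum largely repeats its values and adds little about red cells. The part of red cells in the difference of Alas2 was not tested.

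Non-coding transcripts were among the lower members. Neat1, the RNA scaffold of nuclear paraspeckles, was at 14.86, 14.85 and 14.85 in male floxed and 14.59, 14.58 and 14.58 in male cardioGRKO libraries. Under the female label its level was 14.92, 14.91 and 14.89 and 14.47, 14.49 and 14.49. Libraries of a group differed by at most a few hundredths, and the groups by 0.27 and 0.42. Xist, the RNA that silences 1 X chromosome in female cells, met the rule too. It differed by -0.22 in males, where its mean was 8.34, and by -0.24 in the libraries labelled female, where its mean was 13.56. Low values on this scale look shrunken, which was not tested, so its difference in males may say little about Xist there. By RefSeq biotype, 6 lower members and 1 higher member were long non-coding RNAs.

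Rn45s, the precursor of ribosomal RNA, and Lars2, a mitochondrial leucyl-tRNA synthetase, met the rule without separating the groups. Rn45s was at 15.59, 15.53 and 16.37 in male floxed and 14.76, 16.15 and 15.13 in male cardioGRKO libraries. It was at 15.39, 15.93 and 15.63 and 16.31, 14.15 and 14.95 in the libraries labelled female. The groups overlapped in both comparisons. Without labelled female cardioGRKO replicate 2 its difference in the libraries labelled female was -0.02 instead of -0.51, and that of Lars2 was 0.07 instead of -0.27. Around their group means Rn45s and Lars2 followed each other with a Pearson correlation of 0.99 over the 12 libraries. Rpl11, a ribosomal protein gene, overlapped in the libraries labelled female and not in males. Its difference in the libraries labelled female was -0.02 instead of -0.21 without cardioGRKO replicate 3. In males it was -0.08 instead of -0.16 without cardioGRKO replicate 2. These 3 were the members whose groups overlapped in at least 1 comparison.

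Further lower members have varied roles. Ralgapa2, a brake on Ral GTPases, was at 11.35, 11.38 and 11.40 and 11.07, 11.04 and 11.04 in the male groups and at 11.17, 11.12 and 11.22 and 10.87, 10.89 and 10.90 in the libraries labelled female. Ppip5k2, which makes inositol pyrophosphates, was lower by 0.33 and 0.25, Mcf2l, an exchange factor of small GTPases, by 0.32 and 0.23, and Efnb3, an ephrin ligand, by 0.53 and 0.23. Grb14, an adaptor that restrains the insulin receptor, was lower by 0.13 and 0.15. Gstm2, a glutathione transferase, was lower by 0.31 and 0.13, with -0.08 in the libraries labelled female without floxed replicate 3 and -0.21 without the pair that held Krt12. Among higher members, B3galt2, a galactosyltransferase, was at 8.42, 8.36 and 8.41 and 8.79, 8.87 and 8.78 in the male groups and at 8.41, 8.40 and 8.35 and 8.74, 8.67 and 8.73 in the libraries labelled female. Klhdc7a, a kelch protein, was higher by 0.52 and 0.28. Ppp1r3c, which targets a phosphatase to glycogen, was higher by 0.41 and 0.17, and was the 1 member among 33 genes of glucose use and glycolysis.

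**Figure D4:**
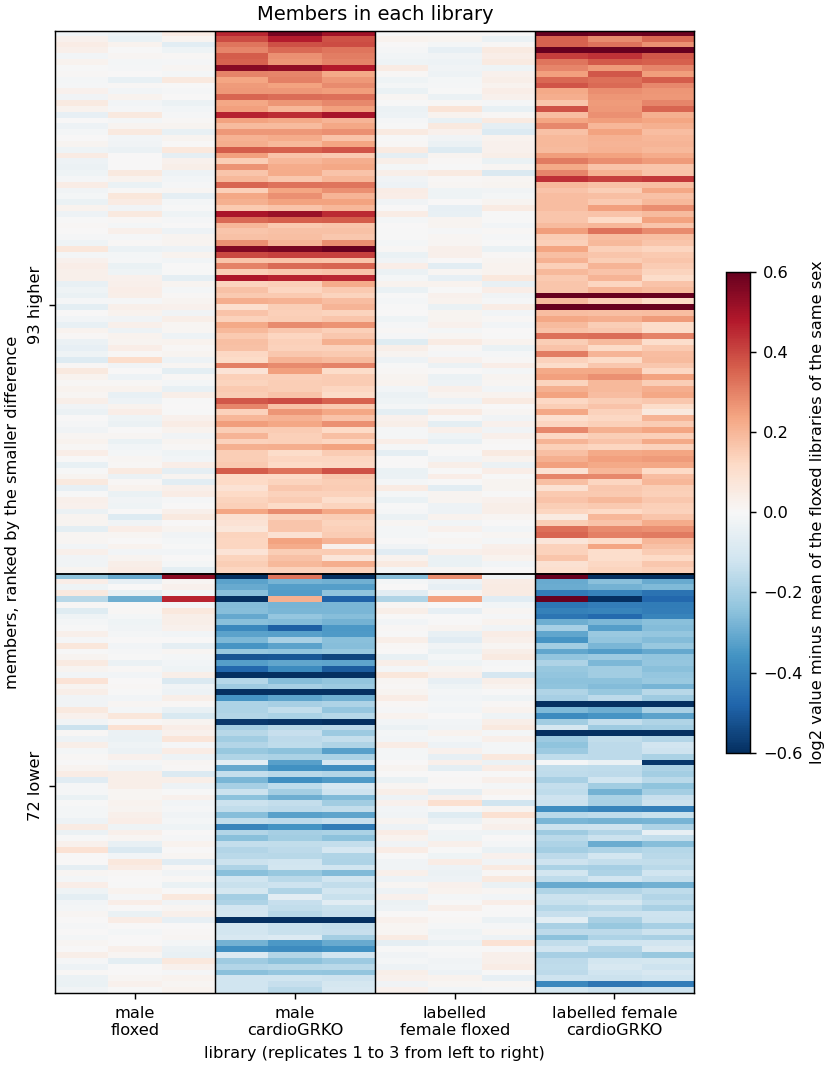
Rows are the 165 members, higher ones above and lower ones below, each ranked by the smaller of its differences, and columns are the 12 libraries. Colour gives the log2 value minus the mean of the floxed libraries of the same sex label, cut at 0.6; the 2 rows of mixed colour near the top of the lower block are Rn45s and Lars2.

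Some lists with many calls in both comparisons held no member. In those given here, except ER stress, the calls in males and under the female label were mostly in opposite directions. Of 41 fatty acid oxidation genes, limma called 3 higher and 36 lower in males and 35 higher and 2 lower in the libraries labelled female. Of 38 interferon-stimulated genes it called 36 lower in males and 23 higher in the libraries labelled female. Of 45 extracellular matrix genes it called 25 higher and 3 lower in males and 4 higher and 23 lower in the libraries labelled female. Of 47 oxidative phosphorylation genes it called 0 higher and 38 lower in males and 15 and 2 in the libraries labelled female. The tricarboxylic acid cycle and ketones (31 genes) had 2 and 27 against 15 and 1. Mitochondrial dynamics (28) had 1 and 15 against 15 and 0, and the clock (22) 10 and 4 against 2 and 9. These lists also held 0 members. So did ER stress (23 genes), where limma called 9 higher and 1 lower in males and 12 higher and 2 lower in the libraries labelled female. Over all 9636 genes, 0.965% were higher and 0.747% lower members. By that share a list of this size would often hold 0 members, so nothing is read from their absence.

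Within a group, members did not vary together. Deviations of the libraries from their group means had a mean pairwise correlation of 0.004 among higher members, 0.014 among lower members and 0.009 between them, against 0.002 among all 9636 genes. These are descriptions over 12 libraries that share their 4 group means. Of 13530 pairs of members, 5 reached 0.9, Rn45s with Lars2 first. The others were Aldh1l2 with Nuak1, Ccnd2 with Exoc4, Spsb4 with Myl12a, and Uchl1 with Nomo1. The share of such pairs among all genes was not counted, so nothing is read from their number. The SD within groups was that of other genes, with medians of 0.029 for higher members, 0.032 for lower members and 0.031 for all genes in male floxed libraries.

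Some members are neighbours on the chromosome among protein-coding genes. How many such pairs a like number of other genes would give was not counted, so nothing is read from them. Kcne1 and Rcan1 lie next to each other and went in opposite directions. Hectd2 with Ppp1r3c and Serf2 with Serinc4 are higher pairs, and Plekhg2 with Zfp36 is a lower pair. Of 158 members found in the GENCODE annotation, 56 share exonic bases with another gene typed protein-coding, lincRNA, antisense or processed transcript. For 31 members a protein-coding gene is among these. Other types were left out and the share over all genes was not counted, so nothing is read from these numbers. Tmem82 and the non-coding AI507597 overlap on opposite strands, as do Serf2 and Serinc4. The use of strand in counting is not stated, so the reads of such partners cannot be told apart. Tmem82 (-0.41 and -0.26) and AI507597 (-0.31 and -0.24) had like differences.

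The difference between the libraries labelled female and the male ones, averaged over genotypes, was not used by the rule and was tested with limma over 14721 genes. Among the members, 54 were higher and 52 lower in the libraries labelled female, 106 of 165 in all. Among all genes tested the shares were 18.9% higher and 20.9% lower, and among those with a mean of at least 8 they were 21.3% and 26.3%. Of the higher members 31 were higher and 25 lower in the libraries labelled female, and of the lower members 23 and 27. The median size of the difference, without its sign, was 0.096 for members and 0.050 for the 9636 genes. A size of at least 0.25 was found in 23 members and in 225 of the 9636 genes. The median signed difference was 0.02 for higher and -0.02 for lower members. Floxed and cardioGRKO libraries enter this contrast equally. A gene in which a group stands apart from all others differs both by genotype and by sex label. The rule can thus favour genes with a sex difference, so the larger share and size among members are not read as a trait of theirs.

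Apart from Xist, with a difference of 5.22 (SE 0.026, adjusted p = 1.72e-24), Cdkn1a led the named members higher in the libraries labelled female. Its difference was 0.59 (limma, SE 0.022, adjusted p = 3.16e-12), with 0.57 between floxed and 0.60 between cardioGRKO groups, and all 6 libraries labelled female lay above all 6 male ones. Kcna5 (0.51), Tmem82 (0.46), Tubb4b, a β-tubulin (0.46), and Cenpf (0.44) followed, each with an adjusted p (limma) of at most 4.14e-10. Phlda3 differed by 0.39 and Acta1 by 0.31. On the other side C3 was lower by 0.60 (SE 0.019, adjusted p = 4.98e-13, limma) and Cntn2 by 0.56 (SE 0.024, adjusted p = 1.76e-11, limma). Both differed alike in each genotype, C3 by -0.62 and -0.58 and Cntn2 by -0.57 and -0.55. Of the transcripts without a proper symbol, 8430408G22Rik had 0.68 and AI507597 0.43, both picked after their values were seen. Cfd (-0.12) and Cacna1c (-0.07) were also called lower, whereas the differences of Mybpc2 (-0.04, adjusted p = 0.0844) and Neat1 (-0.02, adjusted p = 0.0504) did not pass the limma test.

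Csdc2, Phyhd1 and Cyp26b1 had the lowest differences in males of all members, and their floxed groups differed widely between the sex labels. Csdc2, an RNA-binding protein, was at 10.74, 10.70 and 10.67 in male floxed and 9.78, 9.73 and 9.78 in male cardioGRKO libraries, and at 9.71, 9.69 and 9.69 and 9.52, 9.47 and 9.53 in the libraries labelled female. Phyhd1, a dioxygenase, was at 11.23, 11.28 and 11.18 and 10.21, 10.21 and 10.17 in the male groups and at 10.28, 10.26 and 10.22 and 10.19, 10.06 and 10.12 in the libraries labelled female. In both genes the male floxed libraries stood apart, and the other 3 groups were close to each other. The differences between the sex labels were -1.01 among floxed and -0.26 among cardioGRKO libraries for Csdc2, and -0.98 and -0.07 for Phyhd1. Cyp26b1, which breaks down retinoic acid, showed -0.87 and -0.03. Its male cardioGRKO libraries were at 48.0% of the male floxed level on the deposited scale. Its difference under the female label was -0.23, and -0.13 without the pair that held Krt12. Whether these differences depend on genotype was not tested, because the rule used the contrasts that such a test needs.

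**Figure D5:**
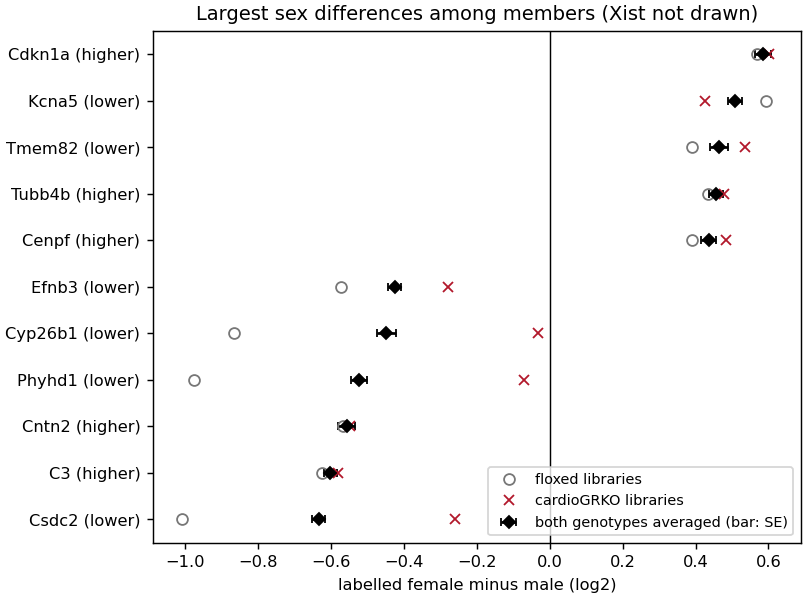
For 11 members the difference between libraries labelled female and male is plotted in log2 units, for floxed libraries (open circle), cardioGRKO libraries (cross) and both averaged (diamond, bar: SE). Cdkn1a, C3 and Cntn2 have their 3 marks close together, while Csdc2, Phyhd1 and Cyp26b1 lie near -1 in floxed and nearer to 0 in cardioGRKO libraries.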

How the data were processed

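The log2 values used are those the authors deposited, 1 per gene for 24918 genes and 12 heart libraries. The submitters' processing notes name Trim Galore, TopHat2, HTSeq, DESeq2 and build mm9, without versions, roles or order. Depth is unknown. The low values look shrunken, which no source states and which was not tested, and percentages of a floxed level may then understate the differences of weakly expressed genes. By Entrez identifier, 27 symbols stored as dates were put back.

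Group means were subtracted within each sex label to apply the rule. The SD limit of 0.5 was applied to each floxed group. For the sex contrast, limma 3.58.1 (R 4.3.3) was run on the 14721 genes with at least log2 of 10 in 3 or more libraries, with 1 mean per group, empirical Bayes with trend and Benjamini-Hochberg adjustment, called under 0.05 (two-sided). The genotype contrasts of that fit serve as background. Lists (25) and marker lists (15) were written by hand, and sums of markers are on the linear scale. The steps were tested on simulated data. Alternatives covered the limits, the filter, the scaling, medians, the moderation, a replicate block and leaving out libraries.

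The members and lists were chosen with earlier results of these data known. Named genes are Nr3c1, the first 12 higher and 12 lower members without overlap by the smaller difference, members in a pathway list, the 6 largest sex differences in each direction and the 3 genes on each side of the limit, leaving out symbols such as Rik or LOC. Other genes named were chosen after their values were seen. Promoter windows (250 bases) are from RefSeq on GRCm38.p6 and overlaps from GENCODE on GRCm38, not mm9. The numbers of replicates did not pair libraries. Some results are not reported here.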

Additional observations from a re-analysis of the deposited data

How the results depend on the processing

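The number of members depends on the limit, as its construction implies, with 171 higher members at 0.10 (105 lower) and 48 higher and 41 lower at 0.15. With the replicate number as a block, requiring all 3 paired differences past the limit, 47 higher and 27 lower genes were left. All are members by construction, since their mean differences must pass the limit too. The labels do not pair the libraries, and same-numbered libraries did not deviate together (correlations of 0.07, -0.07 and -0.04 in males and 0.07, -0.16 and 0.18 in the libraries labelled female). In the sex contrast the replicate block called 54 and 52 members, the same counts as without it. Leaving out 1 library gave 92 to 104 higher and 69 to 79 lower genes. Quantile normalization gave 102 and 69 (85 and 60 of them reported members), median centring 85 and 82 (85 and 72), and group medians 105 and 75 (84 and 62). Under alternatives, 5472 genotype differences were computed, of the members and the genes just outside the limit. Of these, 5343 kept within the spread of the libraries, 128 moved past it and 1 reversed. By construction, leaving out 1 library of 3 cannot move a difference past that spread. Those settings could only keep or reverse a value, so the count kept is no measure of stability. The reversed value was that of Lars2 in the libraries labelled female, at 0.067 without cardioGRKO replicate 2. Its range over left-out libraries was -0.71 to 0.067. Acad12 fell under the limit in males without cardioGRKO replicate 2 (0.10 instead of 0.15), as did Hspa1l (0.08 instead of 0.13). Rn45s in males ranged from -0.88 without cardioGRKO replicate 2 to -0.19 without replicate 1. Without the pair of libraries that held Krt12, Cecr2 was at -0.24, Igsf1 at 0.10 and Pgm5 at 0.09 in the libraries labelled female. Leaving out 1 library gave 51 to 55 members called higher and 48 to 54 called lower under the female label. Over all alternatives the 240 values of the members with the largest sex differences kept their direction and call, and the counts of calls stayed within 1.5 times. Each group has 3 libraries and the depth is unknown, so precision rests on their spread.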
